A study of Mus musculus with 6 samples.

Results

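Microglia, the resident macrophages of the retina, were followed through 10 genes in postnatal day 21 mouse retina: Csf1r, Cx3cr1, Tyrobp, C1qa, C1qb, C1qc, Ctss, Aif1, Ly86 and Lgals3. Every probe set annotated to one of these symbols was taken, which gave 15 of the 45037 non-control probe sets on the Affymetrix array and 10 of its 18193 named genes. RNA was measured in 3 samples labelled knockout (ERRβ -/-, C57Bl/6 x Sv129 background) and 3 wildtype samples (C57Bl/6). Each sample was a pool of 2 retinas, and the labels give mixed sex, standard chow and a light:dark cycle for all 6. Genotype and strain background cannot be told apart in this design. Whether the pools share animals beyond these retinas is unstated in the labels, and p-values then cover just the spread among the 6 samples.

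Microglia depend on the receptor encoded by Csf1r for survival and read signals from neurons through the fractalkine receptor Cx3cr1. Tyrobp passes signals from several activating surface receptors into the cell, and the C1q chains start the classical complement cascade, which in the nervous system also tags synapses for removal. When photoreceptors are injured, microglia move toward the outer retina and take up debris. Lgals3 is raised in phagocytically active microglia and macrophages, but other cells, epithelial and glial ones among them, can express it too. In these bulk samples, fewer cells of a type and less RNA per cell cannot be told apart.

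Signals are on a linear scale that differs between arrays. Replicates 1 and 2 of both groups were scaled to a trimmed mean near 500 and replicate 3 of both groups near 150, so signals are compared within each of these 2 sets of arrays. Differences are log2 values, labelled knockout minus wildtype, from a limma fit over all kept probe sets with this scaling batch as a block, given ± SE (n = 3 per group). Kept probe sets had a geometric mean signal of at least 54.5 over the 6 arrays. The targeted gene, Esrrb, was not lower in the samples labelled knockout. Its brightest probe set had signals of 3435, 4012 and 2397 in labelled knockout replicates 1, 2 and 3, against 2951, 2934 and 1771 in wildtype, a difference of 0.37 ± 0.0833 (limma adjusted p = 0.0852 without the filter). The sources used here do not place this probe set inside or outside the deletion, so it does not check the labels, and the samples are called labelled knockout. For Actb, RNA integrity read as signal at the 3′ end over signal at the 5′ end gave 1.82, 1.66 and 1.67 in labelled knockout and 1.83, 1.89 and 2.32 in wildtype replicates 1, 2 and 3. For Gapdh the same ratio gave 0.731, 0.719 and 0.731 in labelled knockout and 0.727, 0.712 and 0.779 in wildtype. Correlations of log2 signals between arrays were 0.953 to 0.978 within a scaling batch and 0.799 to 0.864 between them.

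The promoters of 3 members are shown because these members differ most in the results: Lgals3 was the member past the test over all arrays, Ctss passed in the arrays scaled near 500 and not over all 6, and the probe sets of C1qb disagreed. Each line holds the 250 bases before the gene start, 5′ to 3′ on the gene's strand, from RefSeq on GRCm38.p6. Capitals mark GAGGAA, the core bound by the myeloid factor PU.1, and GGGCGG, the GC box bound by Sp1, on either strand.
Lgals3, chr14:47373610-47373859, plus strand: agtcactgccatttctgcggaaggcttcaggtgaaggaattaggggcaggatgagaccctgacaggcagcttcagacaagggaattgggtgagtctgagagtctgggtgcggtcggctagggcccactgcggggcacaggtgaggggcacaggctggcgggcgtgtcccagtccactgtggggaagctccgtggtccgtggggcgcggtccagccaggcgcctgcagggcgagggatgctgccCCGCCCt
Ctss, chr3:95526536-95526785, plus strand: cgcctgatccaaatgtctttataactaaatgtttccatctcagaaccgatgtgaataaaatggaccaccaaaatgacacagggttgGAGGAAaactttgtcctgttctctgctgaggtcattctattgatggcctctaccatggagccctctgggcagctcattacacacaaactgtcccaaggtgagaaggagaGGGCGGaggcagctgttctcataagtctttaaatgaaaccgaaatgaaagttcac
C1qb, chr4:136886201-136886450, minus strand: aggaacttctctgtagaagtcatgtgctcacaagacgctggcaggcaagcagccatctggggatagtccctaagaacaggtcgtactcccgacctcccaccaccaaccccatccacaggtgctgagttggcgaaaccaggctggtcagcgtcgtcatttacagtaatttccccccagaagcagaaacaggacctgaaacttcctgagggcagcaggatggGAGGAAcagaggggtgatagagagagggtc
Among the 7 members with a promoter in the RefSeq table, GAGGAA was present in 4 (Aif1, C1qb, C1qc and Ctss), and it is present in 23.1% of 27025 promoters. GGGCGG was present in 3 (C1qc, Ctss and Lgals3), against 32.9% of all. The AP-1 motif TGANTCA was found in 0 of the 7 and in 6.87% of all. Each motif was searched on both strands by itself, whatever its overlap with another, and a match describes letters in this window and not a bound site.

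Of the 10 genes, Lgals3 rose in the samples labelled knockout, by 1.55 ± 0.288 on the log2 scale or 2.92-fold (limma adjusted p = 0.0301). Among the 12536 genes with a kept probe set, 1.28% rose and 2.75% changed in either direction. The other 7 genes with a kept probe set did not pass, with log2 differences from -0.37 for C1qb to 0.64 for Ly86. C1qc and Aif1 lay below the filter on low signal. Over all 27022 kept probe sets, 280 rose (1.04%) and 329 fell (1.22%), 2.25% in all. With no filter, over 45037 probe sets, 0.899% changed, and the 3 dim member probe sets were not among them. An unadjusted p under 0.05 was found for 3 of the 8 kept genes, Lgals3, Ly86 and C1qb, and for 21.3% of all 12536 kept genes, the share to set beside every such count below.

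**Figure D1:**
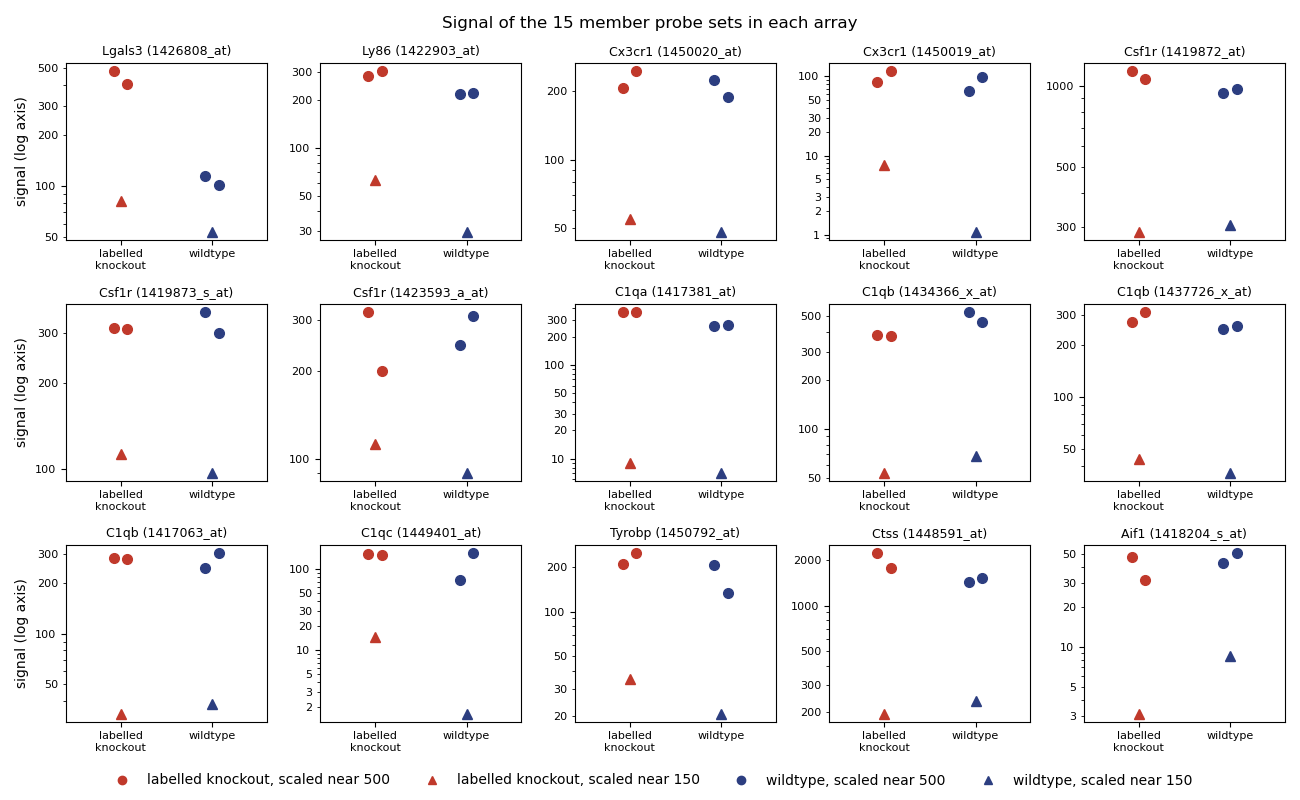
Signal (log axis, a range of its own in each panel) of the 15 member probe sets in labelled knockout (left, red) and wildtype (right, blue) samples, with circles for arrays scaled near 500 and triangles for those scaled near 150. Lgals3 reads 479 and 401 in the labelled knockout circles, against 115 and 102 in the wildtype circles, while the circles of both groups overlap for 7 probe sets.

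Lgals3 encodes galectin-3, a β-galactoside-binding lectin long used as a macrophage surface marker. Its probe set, 1426808_at, read 479, 401 and 82.2 in labelled knockout replicates 1, 2 and 3, against 115, 102 and 53.8 in wildtype. The labelled knockout samples were higher in both scaling batches, without overlap among the 4 arrays scaled near 500. Labelled knockout averaged 440 ± 54.6 and wildtype 109 ± 9.32 in those arrays (SD, n = 2 each), a ratio of 4.05 and a log2 difference of 2.02. In the arrays scaled near 150 the ratio was 1.53 and the log2 difference 0.61. These differences were 1.41 ± 0.405 apart on the log2 scale (SE), a difference between scaling batches that did not pass (limma interaction, adjusted p = 0.142, where 1.19% of kept probe sets passed). The 95% interval of the difference over all arrays ran from 0.90 to 2.20.

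The Lgals3 call was not kept in several other fits. With no block limma gave an adjusted p = 1 (0 probe sets of any gene passed, 118 at an unadjusted p under 0.05), and with no variance trend 0.235. With a replicate block limma gave an adjusted p = 0.0679, and no member passed (3 at an unadjusted p under 0.05, as were 17.5% of kept probe sets). Without labelled knockout replicate 1 or 2, adjusted p was 0.158 and 0.167, and without wildtype replicate 1 or 2 it was 0.157 and 0.179, with log2 differences of 1.34, 1.49, 1.46 and 1.36 in the same order. Without replicate 3 of labelled knockout or of wildtype the difference was 2.02 and passed (adjusted p = 0.000587 and 0.000432). An exact permutation test that moved labels within the scaling batches gave a two-sided p = 0.167, the smallest that its 12 arrangements allow.

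Genes of other cell types differed between the same samples. Of 18 kept lens genes, 16 rose and none fell, and all 18 had an unadjusted p under 0.05. Their summed signal was 78136, 67343 and 51984 in labelled knockout replicates 1, 2 and 3, against 6661, 5504 and 10090 in wildtype. The 2 brightest, the small heat shock crystallin gene Cryab and the β-crystallin gene Cryba1, rose 2.75-fold and 11.5-fold. The other 14 were Cryaa, Crygs, Crybb1, Crybb2, Crybb3, Cryba2, Cryba4, Cryga, Crygb, Crygd, Crygf, Lim2, Mip and Bfsp1. With each array left out in turn 15 to 17 lens genes passed, in fits where 39 to 1513 of the 27022 kept probe sets passed as higher. Of 14 kept genes of the pigment epithelium and melanocytes, 4 rose (Tyrp1, Dct, Pmel and Mlana) and none fell, with 10 at an unadjusted p under 0.05. Without wildtype replicate 2 none of these 4 passed, 2 pigment genes passed without labelled knockout replicate 1, and the other arrays left out gave 3 to 5. Ttr, the brightest of the list, had 0.27 (adjusted p = 0.298). The sums of the 14 were 40902, 48042 and 2108 in labelled knockout and 34923, 35573 and 1315 in wildtype replicates 1, 2 and 3. No signal of these lists was 0 in any array. The part of lens cells, pigment cells and RNA integrity in the Lgals3 result was not tested.

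**Figure D2:**
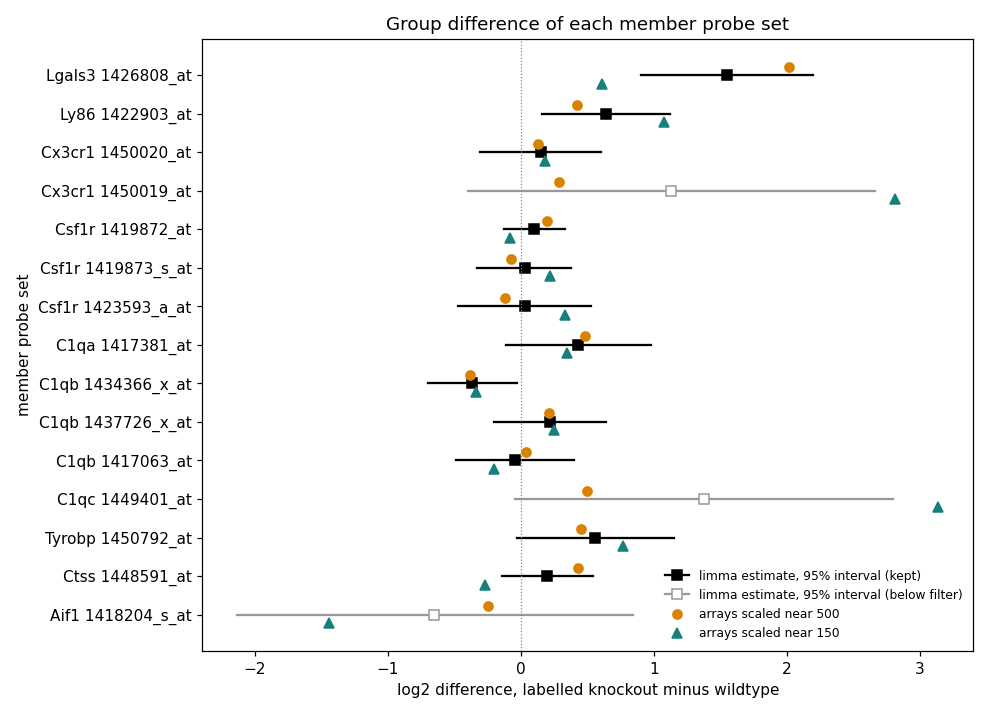
Log2 difference, labelled knockout minus wildtype, of each member probe set, with the limma estimate and its 95% interval (squares), the arrays scaled near 500 (circles) and those scaled near 150 (triangles). Open grey squares are the 3 probe sets below the filter, from the fit of all 45037, and the Lgals3 interval runs from 0.90 to 2.20.

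The receptors that mark microglia did not pass. Csf1r, the receptor for the growth factors encoded by Csf1 and Il34, has 3 kept probe sets. The brightest, 1419872_at, read 1134, 1061 and 288 in labelled knockout replicates 1, 2 and 3, against 944, 972 and 305 in wildtype. Labelled knockout was thus higher in the arrays scaled near 500 and lower in those scaled near 150, with a log2 difference over all arrays of 0.10 ± 0.103 (95% interval -0.13 to 0.33, limma adjusted p = 0.615). The other probe sets, 1419873_s_at and 1423593_a_at, both had 0.03, with intervals of -0.33 to 0.38 and -0.47 to 0.53, and their groups overlapped in the arrays scaled near 500. These intervals span 0 and do not show that Csf1r was alike in both groups.

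The fractalkine receptor gene Cx3cr1 was measured by 2 probe sets. The brighter, 1450020_at, read 205, 243 and 54.8 in labelled knockout replicates 1, 2 and 3, against 222, 188 and 48.4 in wildtype. The groups overlapped in the arrays scaled near 500, and the log2 difference was 0.15 ± 0.203 (interval -0.31 to 0.60, limma adjusted p = 0.731). The dimmer, 1450019_at, lay below the filter and had signals of 85.9, 116 and 7.62 in labelled knockout and 66.2, 99.8 and 1.09 in wildtype. Its log2 difference of 1.13 ± 0.682 in the fit without a filter (adjusted p = 0.506) shrank to 0.32 when 16 was added to every signal, since the wildtype replicate 3 signal was close to 1. Among the ligands of both receptors, fractalkine's gene Cx3cl1 had a log2 difference of 0.25 (adjusted p = 0.169), Csf1 0.11 (adjusted p = 0.82) and Il34 0.11 (adjusted p = 0.865).

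Tyrobp, the adaptor that carries an activating motif for receptors such as Trem2, read (probe set 1450792_at) 208, 246 and 35.2 in labelled knockout replicates 1, 2 and 3, against 204, 134 and 20.6 in wildtype. Each labelled knockout sample was above the wildtype samples of its scaling batch, narrowly so for replicate 1. The log2 difference of 0.56 ± 0.263 did not pass (interval -0.03 to 1.15, limma adjusted p = 0.271). Of 16 partners and Fc receptors on the array, 5 were kept and none passed (0 at an unadjusted p under 0.05). The largest differences on that list were -0.91 for Trem1 and 0.64 for Fcgr1, and the brightest kept gene, the inhibitory Fc receptor Fcgr2b, had 0.15. Trem2, which signals through the Tyrobp protein, and Fcer1g, a related adaptor, lay below the filter.

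The 3 chains of C1q are encoded by neighbouring genes. C1qa (1417381_at) read 362, 362 and 9 in labelled knockout replicates 1, 2 and 3, against 257, 263 and 7.09 in wildtype, higher in labelled knockout in both scaling batches. The replicate 3 signals were low, at percentiles 15.1 and 13.7 of their arrays, so their order carries little weight. The log2 difference of C1qa over all arrays was 0.43 ± 0.244 (interval -0.11 to 0.98, limma adjusted p = 0.352). C1qc (1449401_at), below the filter, read 151, 149 and 14.5 in labelled knockout, against 72.3, 156 and 1.64 in wildtype, and the groups overlapped in the arrays scaled near 500. Its difference of 1.38 ± 0.634 in the fit without a filter (adjusted p = 0.369) was 0.55 with 16 added.

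The probe sets of C1qb did not share a direction. The brightest, 1434366_x_at, whose suffix marks probes that can bind other transcripts, read 384, 375 and 53.6 in labelled knockout replicates 1, 2 and 3, against 529, 462 and 68.0 in wildtype, lower in labelled knockout in both scaling batches (-0.37 ± 0.149, interval -0.70 to -0.03, limma adjusted p = 0.205). Another of the same kind, 1437726_x_at, read 274, 310 and 43.4 in labelled knockout, against 248, 257 and 36.4 in wildtype, higher in both (0.22 ± 0.188, adjusted p = 0.545). The probe set without that suffix, 1417063_at, had -0.04 ± 0.197 (adjusted p = 0.926) with overlapping groups. No direction is given for C1qb. Of 7 other kept complement genes none passed in the fit over all arrays (2 at an unadjusted p under 0.05). Cfp, which encodes properdin, had -0.69 (adjusted p = 0.116) and Cd59a, an inhibitor of the terminal complex, -0.50 (adjusted p = 0.139), while the bright Clu, a secreted chaperone that binds the terminal complex, had 0.06. In the 4 arrays scaled near 500 Cfp passed as lower (-1.03, limma adjusted p = 0.00253). The complement regulator gene Cr1l passed there as higher (0.79, adjusted p = 0.0151), in a fit that called 13.6% of kept probe sets. In the arrays scaled near 150 the differences were -0.02 for Cfp and -0.18 for Cr1l. Without replicate 3 of either group, which leaves a comparison of the same 4 arrays, 1 gene passed in each direction. Without labelled knockout replicate 3, 1501 of the 27022 kept probe sets passed as higher and 2209 as lower, and without wildtype replicate 3, 1513 and 2184.

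Ctss encodes cathepsin S, a lysosomal protease of antigen-presenting cells. Its probe set, 1448591_at, read 2206, 1774 and 194 in labelled knockout replicates 1, 2 and 3, against 1418, 1511 and 234 in wildtype. Labelled knockout was higher in the arrays scaled near 500 and lower in those scaled near 150. The log2 difference over all arrays was 0.20 ± 0.151 (interval -0.14 to 0.54, limma adjusted p = 0.493). In a fit of the 4 arrays scaled near 500 alone it was 0.43 ± 0.11 and passed (limma adjusted p = 0.0258), a fit in which 13.6% of probe sets were called, 5.94% as higher. Lgals3 passed there too (adjusted p = 0.000284). In the arrays scaled near 150 the Ctss difference was -0.27. The values of the scaling batches were 0.70 ± 0.202 apart (interaction adjusted p = 0.141). Cst3, a secreted inhibitor of cathepsins, had 0.05 (adjusted p = 0.746).

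Aif1, which encodes the calcium-binding protein Iba1 used to stain microglia, was the dimmest member. Its probe set, 1418204_s_at, read 47.6, 31.8 and 3.15 in labelled knockout replicates 1, 2 and 3, against 42.6, 50.3 and 8.55 in wildtype. The suffix of this probe set, like that of 1419873_s_at for Csf1r, marks probes that can bind other transcripts. The groups overlapped in the arrays scaled near 500, and the difference in the fit without a filter was -0.65 ± 0.66 (adjusted p = 0.721), or -0.24 with 16 added.

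Ly86 encodes a secreted partner of the Toll-like receptor relative Cd180. Its probe set, 1422903_at, read 283, 301 and 63.0 in labelled knockout replicates 1, 2 and 3, against 216, 220 and 29.7 in wildtype, higher in labelled knockout in both scaling batches. The log2 difference of 0.64 ± 0.213 had an interval of 0.16 to 1.12 and did not pass over all kept probe sets (limma adjusted p = 0.141). The arrays scaled near 500 gave 0.42 and the pair scaled near 150 gave 1.08. Cd180 had 0.23 (adjusted p = 0.765). On the list of ligands and partners, which also holds Csf1r, none of 15 kept genes passed in the fit over all arrays (4 at an unadjusted p under 0.05). The pattern receptor gene Tlr2 had 1.02 (adjusted p = 0.167), and Gas6, a ligand of the phagocytic receptors Axl and Mertk, had -0.47 (adjusted p = 0.0573). Gas6 passed as lower in the 4 arrays scaled near 500 (-0.64, limma adjusted p = 0.00046), a fit in which 13.6% of probe sets were called. In the arrays scaled near 150 Gas6 had -0.13. Without replicate 3 of either group 1 gene of the list passed as lower. There 2209 (without labelled knockout replicate 3) and 2184 (without wildtype replicate 3) of the 27022 kept probe sets did.

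Over the 15 probe sets, 12 had a log2 difference above 0, compared with 45.6% of all 45037 probe sets, and their median was 0.20, beside -0.04 for all. Labelled knockout lay above wildtype without overlap in both scaling batches for 5 (Lgals3, Ly86, C1qa, Tyrobp and 1 probe set of C1qb), where 12.8% of all probe sets did so. It lay below for 1, the brightest of C1qb, where 14.8% did so. Probe sets of 1 gene share their RNA, and all 15 were measured on the same 6 arrays.

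The members also differed between the 2 sets of arrays in both groups. Their signals lay at percentiles 24.8 to 92.7 of all probe sets in the arrays scaled near 500 and at 1.69 to 84.1 in the other pair. The shift, mean log2 signal near 500 minus that near 150, was above the median of all kept probe sets for 11 of 12 kept member probe sets. By gene, its median was 2.69 for the 8 kept members and 1.73 for all kept genes. Over the other lists this median ran from -0.34 for lens genes to 4.48 for pigment genes. It was 1.41 for the microglia identity genes and 2.60 for the rod genes, so a large shift was not particular to the members. C1qa was at percentile 67.8, 68.1 and 15.1 in labelled knockout replicates 1, 2 and 3, and at 61.3, 62.0 and 13.7 in wildtype. Its log2 signal was higher by 5.26 in the arrays scaled near 500 than in those scaled near 150, while the median shift over all kept probe sets was 1.57, and 6 of them shifted more. The brightest probe set of Csf1r kept its place, at percentile 85.7, 84.9 and 83.1 in labelled knockout and 83.2, 83.7 and 84.1 in wildtype.

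**Figure D3:**
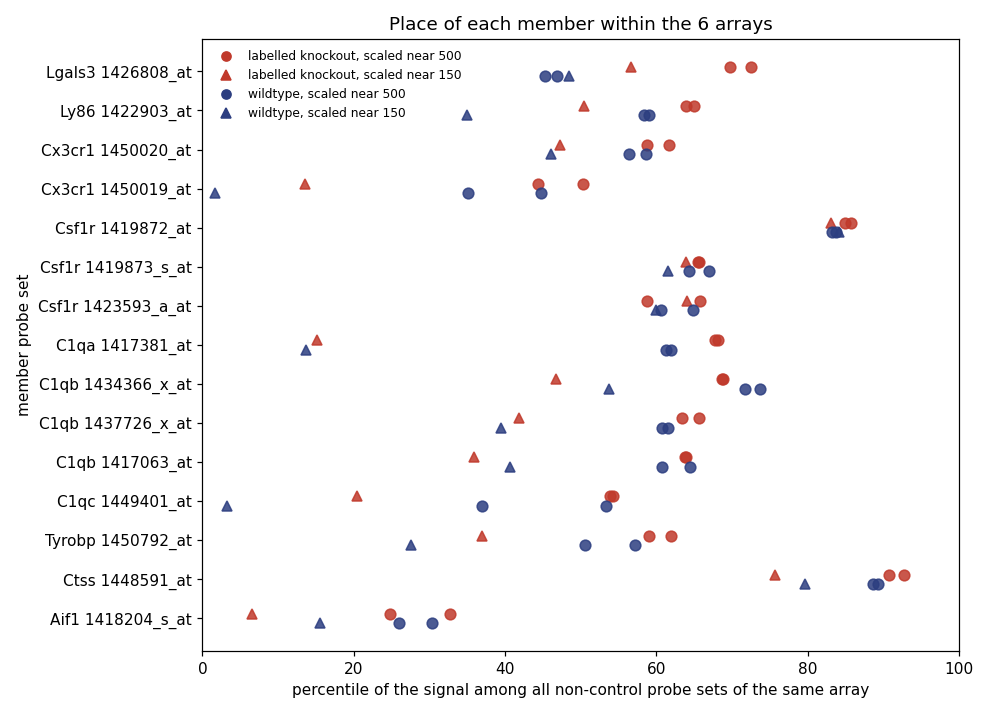
Percentile of each member probe set among all non-control probe sets of the same array, for labelled knockout (red, upper) and wildtype (blue, lower) samples, with triangles for arrays scaled near 150. C1qa lies at 61.3 to 68.1 in the arrays scaled near 500 and at 13.7 to 15.1 in the others, while Csf1r's brightest probe set stays between 83.1 and 85.7.

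Other genes of microglia did not pass. Of 27 identity genes on the array, 17 were kept and none passed in the fit over all arrays (0 at an unadjusted p under 0.05), with a median log2 difference of 0.06 beside 0.02 for all kept genes. Tmem119, a surface marker that separates microglia from blood macrophages, had the largest difference on that list, 0.79 (adjusted p = 0.295). Its signals were 175, 169 and 57.6 in labelled knockout replicates 1, 2 and 3, against 50.5, 148 and 44.4 in wildtype, where replicate 1 was low. Inpp5d, a lipid phosphatase that damps immune receptor signals, had -0.53 (adjusted p = 0.524), and the bright Rgs10 had 0.13 (adjusted p = 0.661). Siglech, Trem2, Itgam and Ptprc were among the 10 below the filter, and were not tested at this filter.

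Of 25 kept genes of activated phagocytes, Fabp5 and Gpnmb rose, none fell, and 11 had an unadjusted p under 0.05, where 21.3% of all kept genes did. Replicates 1 and 2 alone gave a median difference of 0.25, and replicate 3 alone gave 0.24. Fabp5, a fatty acid carrier made by epithelia as well as macrophages, read 9676, 8118 and 3755 in labelled knockout replicates 1, 2 and 3, against 3268, 3157 and 574 in wildtype (1.88 ± 0.209, limma adjusted p = 0.00286). Gpnmb, a glycoprotein of melanosomes as well as of macrophage lysosomes, read 1474, 1369 and 169 in labelled knockout, against 1003, 881 and 83.5 in wildtype (0.73 ± 0.124, adjusted p = 0.0218). Both genes separated the groups in both scaling batches. With a replicate block Gpnmb did not pass (adjusted p = 0.0577), nor without replicate 1 or 2 of labelled knockout (0.11 and 0.084) or of wildtype (0.0584 and 0.161). Fabp5 passed with each array left out (adjusted p 6.98e-06 to 0.0246). With no variance trend neither Fabp5 (limma adjusted p = 0.167) nor Gpnmb (0.223) passed, and with no block 0 probe sets did. The log2 difference of Fabp5 was 1.46 over replicates 1 and 2 but 2.71 for replicate 3. This difference between scaling batches passed (limma interaction, adjusted p = 0.00863, where 1.19% of kept probe sets passed). The Fabp5 value of 1.88 thus covers sizes that differed between batches. Without replicate 3 of either group 3 genes of the list passed as higher, where 1501 (without labelled knockout replicate 3) and 1513 (without wildtype replicate 3) of the 27022 kept probe sets did. Beside these values, 16 of 18 lens genes and 4 of 14 pigment genes rose, with the sums given above, and the part of those tissues in the Fabp5 and Gpnmb results was not tested. Ccl4 had -1.14 (adjusted p = 0.35), and Apoe, the brightest of the list, 0.24 (adjusted p = 0.173). Of the galectin genes on the list, Lgals1 had 0.43 (adjusted p = 0.0843), Lgals9 0.50 (adjusted p = 0.262) and Lgals8 0.11 (adjusted p = 0.568).

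**Figure D4:**
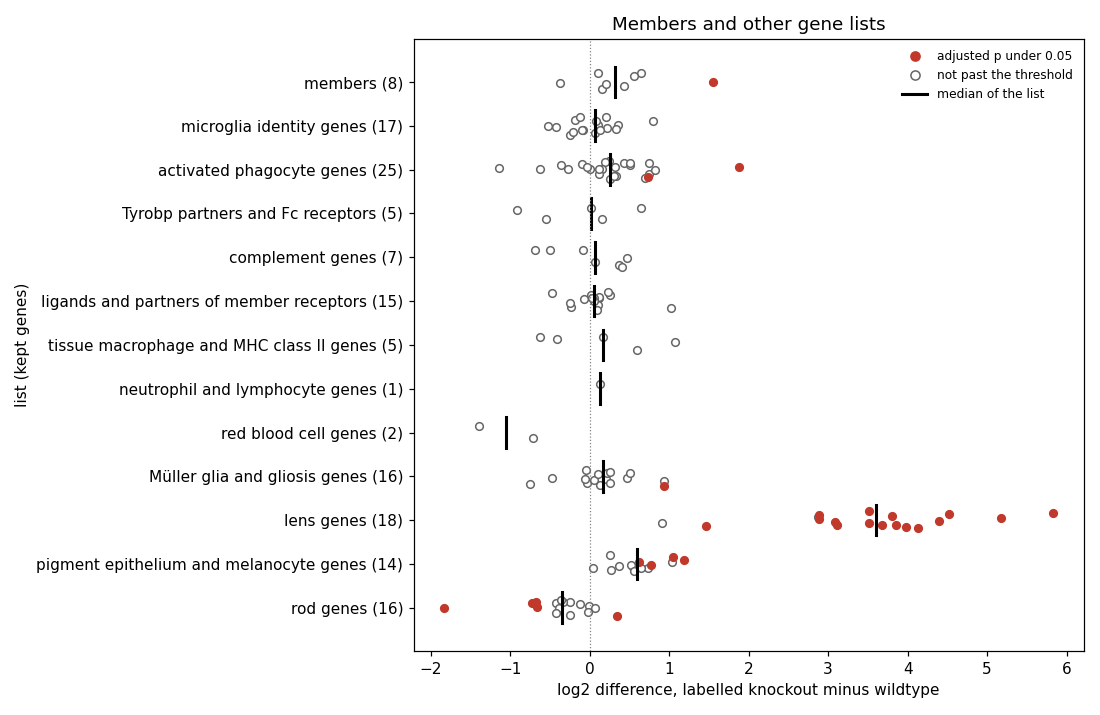
Log2 difference, labelled knockout minus wildtype, of every kept gene on each list (1 point per gene, number of genes in brackets), with filled points for adjusted p under 0.05 and a bar at the median. Among the lists of microglia, phagocytes and their signals, Lgals3, Fabp5 and Gpnmb are the filled points, while 16 of 18 lens genes are filled with a median of 3.60.

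Markers of blood-borne and border cells were mostly dim. Of 19 genes of tissue macrophages and antigen presentation on the array, 5 were kept and none passed (1 at an unadjusted p under 0.05). H2-Eb1, a class II chain, had 1.07 (adjusted p = 0.203), Cd209f -0.63 (adjusted p = 0.316) and Lyve1, the brightest, 0.17 (adjusted p = 0.619). Mrc1, Cd163, F13a1 and the neutrophil genes S100a8 and S100a9 lay below the filter. Of 15 neutrophil and lymphocyte genes on the array 1 was kept, Cd8a, with 0.13 (adjusted p = 0.776). The 2 kept red cell genes were lower in labelled knockout in both scaling batches without passing, Alas2 at -1.39 (adjusted p = 0.0799) and Hbb-b2 at -0.71 (adjusted p = 0.119). Labelled knockout was lower in both for 17.2% of kept probe sets.

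Of 16 kept genes of Müller glia and gliosis, S100a6, a calcium-binding protein, rose by 0.94 ± 0.197 (limma adjusted p = 0.044, and 0.0604 with a replicate block) and none fell, with 5 at an unadjusted p under 0.05. Its signals were 438, 332 and 165 in labelled knockout replicates 1, 2 and 3, against 253, 183 and 72.7 in wildtype. Labelled knockout was higher in both scaling batches, as it was for 16.4% of kept probe sets. With 1 array per group near 150, overlap was possible only in the arrays scaled near 500. S100a6 did not pass without replicate 1 or 2 of labelled knockout (adjusted p = 0.2 and 0.106) or of wildtype (0.083 and 0.23), when none of the 16 did. Without replicate 3 of either group 4 of the 16 passed as higher, where 1501 (without labelled knockout replicate 3) and 1513 (without wildtype replicate 3) of the 27022 kept probe sets did. In the 4 arrays scaled near 500 those past the test were the potassium channel gene Kcnj10 (limma adjusted p = 0.000845), the water channel gene Aqp4 (0.00771), Serpina3n (0.0177) and S100a6 (0.0362). That fit called 5.94% of kept probe sets as higher. The log2 differences there were 1.03, 0.46, 1.25 and 0.83 in the same order, against -0.63, -0.14, 0.32 and 1.18 in the arrays scaled near 150. Kcnj10 and Aqp4 thus had opposite directions in the scaling batches, as did 25% of kept probe sets, with 1 array per group near 150. For Kcnj10 the difference between batches passed (limma interaction, adjusted p = 0.0142, where 1.19% of kept probe sets passed). For Aqp4 it did not (limma interaction, adjusted p = 0.104). The 2 brightest, Glul and Rlbp1, had -0.05 (adjusted p = 0.805) and 0.13 (adjusted p = 0.35). Of 16 kept rod genes 4 fell (Guca1a, Aipl1, Guca1b and Reep6) and 1 rose (Cngb1, by 0.34, adjusted p = 0.0428), with a median of -0.35 over the 16. Cngb1 did not pass with a replicate block (adjusted p = 0.105) or without replicate 1 or 2 of labelled knockout (0.12 and 0.213) or of wildtype (0.196 and 0.231). The count of rod genes that fell was 2 to 10 with each array left out, 10 of them without replicate 3 of either group and 2 without wildtype replicate 1 or 2. In these fits 38 to 2209 of the 27022 kept probe sets fell.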

How the data were processed

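Affymetrix 3′ arrays of 6 retinal RNA samples were used, 3 labelled knockout and 3 wildtype. The authors deposited linear-scale intensities, a single value for each probe set on each array. GCOS 1.4 and MAS5 are named in the submitters' processing notes, with their roles not given in the sources used here. Detection calls were not used here. Of 45101 probe sets, 64 controls were left out. Probe sets were named through the platform annotation (34945 with 1 symbol, 932 with several, 9160 with none), with symbols updated by gene ID.

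Signals were taken to log2 without further normalization. Probe sets at or above the 40th percentile of mean log2 signal were kept (27022). The trimmed mean of each array (2% left out at either end) set the scaling batch. Groups were compared in limma 3.58.1 under R 4.3.3 (variance trend, two-sided) with the scaling batch as a block and Benjamini-Hochberg adjustment over all kept probe sets at 0.05, and the procedure was tested on simulated data. A gene was represented by its brightest kept probe set. No set test was made. Members, lists and the batch block were chosen with earlier results of these data known. The text names every member, list genes past the threshold, the 2 most changed and the brightest gene of lists close to the members, and the 2 brightest of lists of other cells except rods. Outside this rule, some genes are named for their tie to a member, such as Csf1, Il34, Cx3cl1, Cd180 and the other galectin genes.

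Same-numbered samples deviated together from their group means (correlations of 0.57, 0.67 and 0.843 for numbers 1, 2 and 3). The crossed pairs of numbers 1 and 2 gave 0.607 and 0.627, both above the value for number 1. Pairs of number 1 or 2 with number 3 gave -0.756 to -0.678. The values thus follow the scaling batches and do not show that numbers 1 and 2 pair the samples. A replicate block was therefore fitted as an alternative only. Array data have no read depth, and the number of arrays limits precision. Alternatives were other blocks, filters and normalizations, an added constant, no variance trend, 1 scaling batch, and each array left out.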

Additional observations from a re-analysis of the deposited data

Results flagged for a closer look

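Among the 15 probe sets, 2 separated the groups in opposite directions in the 2 scaling batches. The brightest probe set of Csf1r was higher in both labelled knockout arrays scaled near 500 and lower in the one scaled near 150, and its log2 differences in these sets were 0.28 apart (limma interaction, adjusted p = 0.484). The probe set of Ctss showed the same orientation, with log2 differences 0.70 apart (adjusted p = 0.141). Of all kept probe sets, 25% separated the groups in opposite directions in the 2 sets, in this orientation or the reverse. Groups of 3 arrays are too small for a test of a single outlying array.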

How the results depend on the processing

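Lgals3 was higher in labelled knockout in all 15 alternatives that gave a value and passed in 7 of them, with adjusted p from 0.000284 to 1. Its log2 difference was 1.55 with no block (adjusted p = 1), with a replicate block (0.0679) and with no variance trend (0.235), and 1.41 with no filter and 16 added together (0.073, an alternative chosen after seeing the data), none of which passed, and 1.34 to 2.02 with each array left out. With a filter at the 60th percentile its probe set was not kept, so there was no value. These alternatives are not separate checks. In this balanced design the block, the filter and the variance trend leave the log2 difference unchanged. The fits without replicate 3 of either group compare the same 4 arrays as the fit of the arrays scaled near 500. All of these gave 2.02 for Lgals3 and are among the 7 that passed. The number of members called was 1 over all arrays. It was 0 with no block, with a replicate block, with no variance trend and at the 60th percentile (limma; 0, 3, 5 and 1 members at an unadjusted p under 0.05, in that order, beside 0.437%, 17.5%, 16.5% and 25.3% of probe sets), 2 in the 4 arrays scaled near 500 and 0 to 2 with each array left out. Probe sets called, 609 over all arrays, numbered 0 with no block (118 at an unadjusted p under 0.05), 200 with a replicate block, 405 with no filter, 955 at the 60th percentile, 19 with no variance trend and 3687 in the arrays scaled near 500, and 77 to 3710 with each array left out. The low ends came without an array scaled near 500 and the high ends without one scaled near 150. Without either array scaled near 150 the other is alone in its block, so the groups are compared in the 4 arrays scaled near 500. Why those 4 arrays give more calls, and why the low ends are low, was not tested. For the other 7 kept members, 98 of 101 values stayed on the same side of the threshold and 0 changed direction. The 3 exceptions were Ctss, 0.43 in the arrays scaled near 500 alone and without replicate 3 of either group, fits that compare the same 4 arrays. As for Lgals3, the values of a member over these alternatives are not separate checks. No alternative used the arrays scaled near 150 alone, where Csf1r had -0.08 and Ctss -0.27, the other direction. The C1qb values are those of its brightest probe set or of a mean of its probe sets, while 1437726_x_at had 0.22. The replicate block changed no other call among the members. Members with signals under the filter are limited by low signal, as the change of their differences with 16 added shows. C1qa passed the filter, but its replicate 3 signals of 9 and 7.09 were low too.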
